A study of Ovis aries with 24 samples.

Results

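The insulin-like growth factor (IGF) system is described here by 10 genes, the ligands IGF1 and IGF2, the receptors IGF1R and IGF2R, and the binding protein genes IGFBP2, IGFBP3, IGFBP4, IGFBP5, IGFBP6 and IGFBP7. They were chosen by name, with earlier results of these data known. Each of the 10 names matched 1 of the 27054 features in the gene count tables. The data were 24 RNA-seq libraries of sheep pituitary cells, 6 in each of 4 groups. The ewes were ovariectomized animals of the Western white faced breed, and their pituitaries were dispersed and kept in culture. At 24 hours an adenovirus was added that drives green fluorescent protein (GFP) in gonadotropes, and 3 days later the cells were given estradiol (E2) at 10 nM, or ethanol as its vehicle, for 6 hours. The groups were sorted cells with E2, sorted cells with vehicle, unsorted cells with E2 and unsorted cells with vehicle. All 4 groups carried the virus, and all came from animals without ovaries. The sorted cells were collected by fluorescence-activated sorting, and the labels do not say whether the unsorted cells also went through the sorter. The labels call the 6 samples of a group replicates without saying that they were separate animals or cultures, so the p-values measure the spread between these samples.

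IGF1 and IGF2 are secreted peptides that signal through IGF1R, a receptor tyrosine kinase that acts through insulin receptor substrates, phosphoinositide 3-kinase and AKT. IGF2R binds IGF2 and carries it to lysosomes, and the binding proteins hold IGFs outside the cell until proteases release them. In the pituitary the system is known as the arm through which IGF1 limits growth hormone secretion, and in gonadotropes of rodents IGF1 is known to act on gonadotropin output.

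Total counts were 4.19 to 6.19 M reads in the 12 libraries numbered 1 to 3 and 19.2 to 37 M in the 12 numbered 4 to 6. Each group held 3 libraries of each depth, and these sets may be batches, although no label names them. Of the gonadotrope markers, 6 had a feature, and all 6 were higher in sorted than in unsorted cells with vehicle. PRL, the prolactin gene of lactotropes, was higher as well (log2 fold change 0.85, edgeR adjusted p = 0.00928). Its level, in reads scaled by library size (CPM), was 67410 to 177700 CPM in sorted and 39000 to 90450 CPM in unsorted vehicle libraries. Of the markers of other hormone cells, 2 of 3 somatotrope, 2 of 3 corticotrope and 2 of 2 thyrotrope markers were also higher. In these lists 0 were lower. Fibroblast and pericyte markers were lower after the sort. Their summed level was 698 to 1466 CPM in sorted vehicle libraries and 3661 to 9406 CPM in unsorted vehicle libraries, with 7 of 11 tested markers lower and 1 higher. Of the folliculostellate and stem cell markers 5 of 8 were lower and 2 higher, of the endothelial markers 6 of 9 were lower, and of the immune markers 2 of 4 were lower and 1 higher. The summed folliculostellate and stem cell level was 1294 to 1817 CPM in sorted and 1337 to 1766 CPM in unsorted vehicle libraries. These ranges overlapped. None of the markers was at 0 in all libraries of any group.

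Against this, 6 of the 10 IGF genes were lower in sorted than in unsorted cells with vehicle and none was higher. Across all genes tested in that comparison 50.2% were called changed and 25.8% were called lower, at an adjusted p under 0.05 from edgeR's quasi-likelihood test, so the number called in either direction was near the background. The 6 were IGF1, IGFBP2, IGFBP3, IGFBP4, IGFBP5 and IGFBP6. IGF1 was tested only because unsorted libraries passed the filter on low counts, so its call was set in part by the filter. Without it 5 of 9 genes were lower, with a median log2 fold change of -0.95, against 0.016 over all genes tested. With E2 in both preparations the same 6 genes were lower, beside 51.8% of all genes called changed and 26.0% called lower. Without IGF1 5 of 9 were lower again, and their median was -0.83 against 0.014 over all genes. These are bulk libraries, in which fewer cells of a type and less RNA per cell cannot be told apart. The part in these differences of the fibroblast, endothelial and folliculostellate markers called lower was not tested.

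**Figure D1:**
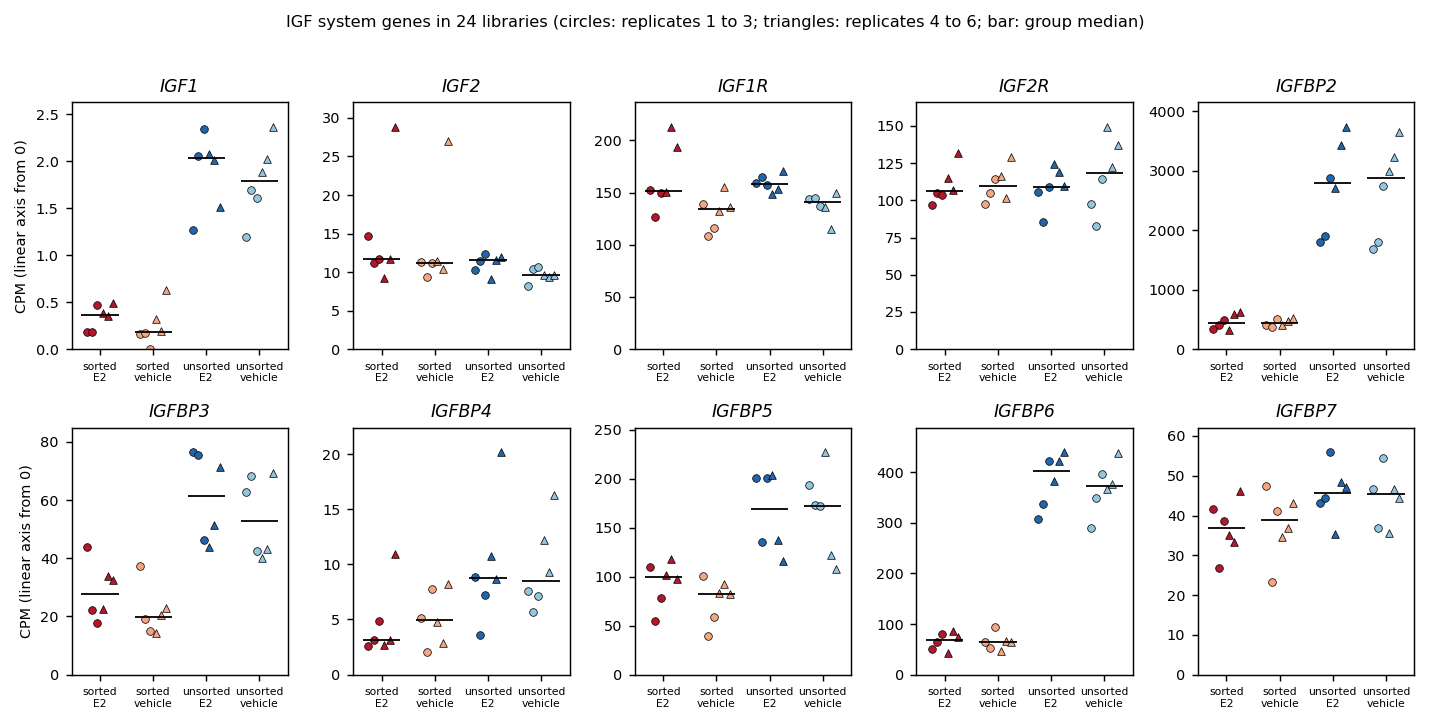
Level of each of the 10 IGF system genes in the 24 libraries, in CPM on a linear axis from 0, with each gene on its own scale. Points are libraries, circles for replicates 1 to 3 and triangles for replicates 4 to 6, and bars are medians of 6. In IGFBP2 and IGFBP6 every sorted library lies below every unsorted one. The same holds for IGF1, which passed the filter on low counts through unsorted libraries alone. The share of all genes that separate in this way is not given.

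IGF1, the ligand that growth hormone induces in many tissues, was close to the detection limit in sorted cells. Sorted E2 libraries held 1 to 11 reads each, 30 in all, and sorted vehicle libraries held 0 to 15 reads each, 27 in all. Unsorted E2 libraries held 7 to 78 reads, and unsorted vehicle libraries 6 to 89 reads. The 1 sorted vehicle library without a read, replicate 3, allows a level of up to 0.517 CPM, taken as 3 reads and covering counting error only. With E2, IGF1 had a lowest, median and highest level of 0.186, 0.367 and 0.486 CPM in sorted cells, against 1.27, 2.03 and 2.34 CPM in unsorted cells. With vehicle the same values were 0, 0.183 and 0.629 CPM in sorted cells and 1.20, 1.79 and 2.36 CPM in unsorted cells. Sorted and unsorted libraries did not overlap under either treatment. The cutoff of the filter, 0.75 CPM for the E2 libraries and 0.787 CPM for the vehicle libraries, was reached under both treatments by 0 of 6 sorted and 6 of 6 unsorted libraries. A gene that enters the comparison in this way had to differ, so its fitted log2 fold changes of -2.35 with E2 and -2.60 with vehicle are given as a description only. IGF1 had too few reads to enter the test of E2 in sorted cells.

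IGF2, the second ligand, was measured in every library and was not called different by the sort. With E2 its lowest, median and highest levels were 9.19, 11.7 and 28.8 CPM in sorted cells, against 9.13, 11.5 and 12.4 CPM in unsorted cells. With vehicle they were 9.39, 11.2 and 27.0 CPM in sorted cells, against 8.18, 9.67 and 10.7 CPM in unsorted cells. The highest value of both sorted groups was that of replicate 6, while unsorted replicate 6 had 12.0 CPM with E2 and 9.67 CPM with vehicle. The log2 fold change of sorted over unsorted cells with vehicle was 0.49 ± 0.24 (SE, edgeR adjusted p = 0.0998), and it lay within 0.15 to 0.58 when any 1 library was left out. With E2 it was 0.39 ± 0.25 (edgeR adjusted p = 0.201).

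Neither receptor was called different between the sorted and unsorted preparations. IGF1R, which transmits the signal of both ligands, averaged 131 ± 16.9 CPM in sorted and 138 ± 12.1 CPM in unsorted vehicle libraries (SD, n = 6 each). Its log2 fold change of sorted over unsorted cells was -0.076, with a 95% interval of -0.28 to 0.13 and an edgeR adjusted p of 0.53. IGF2R, the scavenger receptor, averaged 111 ± 11.6 CPM in sorted and 117 ± 24.7 CPM in unsorted vehicle libraries (SD, n = 6 each). Its log2 fold change was -0.092, with a 95% interval of -0.37 to 0.19 and an edgeR adjusted p of 0.579. With E2 both receptors again lacked a call, at 0.041 for IGF1R (edgeR adjusted p = 0.782) and 0.007 for IGF2R (edgeR adjusted p = 0.96).

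IGFBP2 and IGFBP6 had the most negative log2 fold changes of the binding protein genes. IGFBP2, a carrier of both ligands, had a lowest, median and highest level of 370, 444 and 518 CPM in sorted vehicle libraries, against 1682, 2875 and 3653 CPM in unsorted vehicle libraries. The highest sorted library was thus far below the lowest unsorted one, and the log2 fold change was -2.59 ± 0.19 (SE), or 6.01-fold lower (edgeR adjusted p = 1.42e-07). IGFBP6, which binds IGF2 in preference to IGF1, had 47.1, 64.2 and 94.0 CPM in sorted vehicle libraries, against 290, 372 and 438 CPM in unsorted vehicle libraries. These groups were also apart, with a log2 fold change of -2.52 ± 0.16 (SE), or 5.71-fold lower (edgeR adjusted p = 4.78e-08). With E2 the log2 fold changes were -2.58 for IGFBP2 (edgeR adjusted p = 1.48e-06) and -2.54 for IGFBP6 (edgeR adjusted p = 3.61e-07), again without overlap. The share of all genes whose libraries separate in this way is not given.

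IGFBP3 and IGFBP5 were lower in sorted cells by a smaller factor. IGFBP3, the main carrier of IGFs in blood, had 14.2, 19.7 and 37.4 CPM as lowest, median and highest level in sorted vehicle libraries, against 40.1, 52.9 and 69.2 CPM in unsorted vehicle libraries. The groups did not overlap, and the log2 fold change was -1.34 ± 0.24 (SE, edgeR adjusted p = 0.000333). IGFBP5, which also binds extracellular matrix, had 38.9, 82.7 and 101 CPM in sorted vehicle libraries, against 107, 173 and 227 CPM in unsorted vehicle libraries. These groups lay next to each other without overlap, and the log2 fold change was -1.13 ± 0.23 (SE, edgeR adjusted p = 0.00091). As above, the share of all genes that separate in this way is not given. With E2 the sorted and unsorted libraries overlapped for both genes, and the log2 fold changes were -1.08 for IGFBP3 (edgeR adjusted p = 0.00106) and -0.83 for IGFBP5 (edgeR adjusted p = 0.00251), each lower in 6 of 6 pairs of equal number. IGFBP5 differed in size between the depth sets with vehicle, at -1.52 in replicates 1 to 3 (edgeR adjusted p = 8.35e-05) and -0.76 in replicates 4 to 6 (edgeR adjusted p = 0.0457), both with the replicate block. In the sheep RefSeq annotation of the assembly ARS-UI_Ramb_v3.0, which may differ from the build of the files, IGFBP2 and IGFBP5 are neighbours on chromosome 2.

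The calls of IGFBP4 and IGFBP7 depended on the fit. IGFBP4, whose protein is the best known substrate of the protease PAPP-A, averaged 5.11 ± 2.49 CPM in sorted and 9.69 ± 3.94 CPM in unsorted vehicle libraries (SD, n = 6 each), and the groups overlapped. Its log2 fold change of -0.95 ± 0.34 (SE) passed the test with vehicle (edgeR adjusted p = 0.0293), as did -1.11 ± 0.42 with E2 (edgeR adjusted p = 0.0407). The call held in 7 of 12 fits that left out 1 library with vehicle and in 5 of 12 with E2. With vehicle it was lost without sorted replicate 2, 4 or 5 or unsorted replicate 4 or 6, and the adjusted p reached 0.0814. With E2 it was lost without sorted replicate 1, 2, 3, 4 or 5 or unsorted replicate 4 or 6, and the adjusted p reached 0.126. With equal numbers as pairs, which adds the replicate number to the fit as a block, IGFBP4 was lower under both treatments (edgeR adjusted p = 0.0023 with vehicle and 0.000908 with E2). IGFBP7, which binds IGFs only weakly, averaged 37.7 ± 8.47 CPM in sorted and 44.1 ± 6.96 CPM in unsorted vehicle libraries (SD, n = 6 each), and its log2 fold change of -0.23 was not called (edgeR adjusted p = 0.249). With E2 and all libraries its value of -0.31 was called in the blocked fit alone (edgeR adjusted p = 0.0717 without and 0.0256 with the block), beside 65.7% of all genes called by the blocked fit. Without sorted replicate 6 or unsorted replicate 4 the fit with no block called it lower as well (edgeR adjusted p = 0.0373 and 0.0261). With vehicle the blocked fit called the same 6 members as the fit without it, beside 63.6% of all genes.

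**Figure D2:**
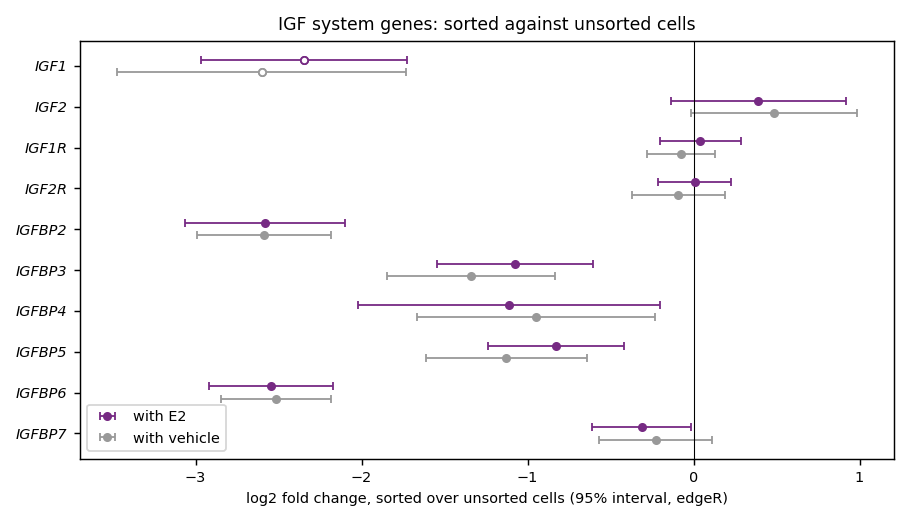
Log2 fold change of sorted over unsorted cells for each of the 10 genes, with 95% intervals from edgeR, with E2 (purple) and with vehicle (grey). IGF1, with open symbols, was near the detection limit in sorted cells and passed the filter through unsorted libraries alone. IGFBP2 and IGFBP6 lie between -2.59 and -2.52, while the intervals of IGF2, IGF1R and IGF2R include 0 under both treatments.

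The 6 binding protein genes summed to 691 ± 152 CPM in sorted E2 libraries and 653 ± 90.8 CPM in sorted vehicle libraries, against 3411 ± 817 CPM in unsorted E2 and 3329 ± 810 CPM in unsorted vehicle libraries (SD, n = 6 each). Since these are read levels without a correction for transcript length, the shares below describe reads and not molecules. IGFBP2 took 66.1% ± 5.31 of these reads in sorted E2 libraries and 68.7% ± 3.75 in sorted vehicle libraries, against 79.6% ± 4.11 in unsorted E2 and 79.7% ± 4.83 in unsorted vehicle libraries (SD, n = 6 each). IGFBP5 took 13.9% ± 4.17 and 11.6% ± 3.19 in sorted E2 and sorted vehicle libraries, against 5.20% ± 2.01 and 5.41% ± 2.31 in unsorted E2 and unsorted vehicle libraries. IGFBP7, whose level was not called different with vehicle, took 5.73% ± 0.826 in sorted cells with vehicle, against 1.39% ± 0.406 in unsorted cells with vehicle. Its ranges of 4.59% to 7.10% in sorted and 0.968% to 2.04% in unsorted cells did not overlap. The shares of a library add to a whole, so a lower share of one gene goes with a higher share of others.

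**Figure D3:**
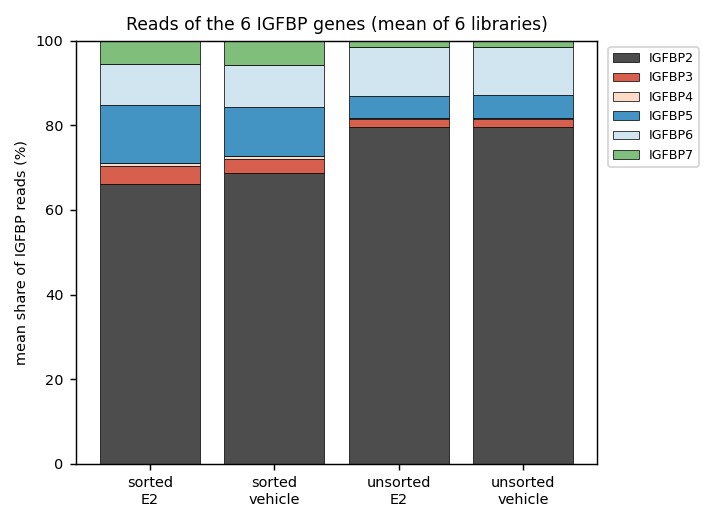
Mean share of each gene in the reads of the 6 binding protein genes, in percent, for the 4 groups (6 libraries each, no correction for transcript length). IGFBP2 holds 66.1% and 68.7% in the sorted groups with E2 and vehicle, and 79.6% and 79.7% in the unsorted groups with E2 and vehicle.

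After 6 hours of E2 no IGF gene was called in either preparation when libraries were compared as 6 against 6. In sorted cells 9 members were tested and 1, IGF1R, had an unadjusted p under 0.05, while 1.37% of all genes were called (196 of 14334, and 1024 at an unadjusted p under 0.05). In unsorted cells 10 members were tested and again IGF1R alone had an unadjusted p under 0.05, while 0.245% of all genes were called (37 of 15083, and 425 at an unadjusted p under 0.05). DESeq2 called 0 members in both. Libraries with equal replicate numbers deviated together from their group means, so each E2 library was also compared with the vehicle library of its number. This blocked fit called 3 of 9 members in sorted cells, IGF1R, IGFBP3 and IGFBP5, all higher with E2. Of all genes tested it called 13.2%, with 7.03% higher. In unsorted cells it called 1 of 10 members, IGF1R, also higher, beside 5.24% of all genes, with 2.86% higher.

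IGF1R had a lowest, median and highest level of 126, 151 and 213 CPM in sorted E2 libraries, against 109, 134 and 156 CPM in sorted vehicle libraries. The groups overlapped, but within each of the 6 pairs the E2 library was higher, by a ratio of 1.09 to 1.43. The log2 fold change was 0.32 ± 0.12 (SE) in the fit without the block (edgeR adjusted p = 0.381) and 0.32 ± 0.049 with it (edgeR adjusted p = 7.93e-05). In unsorted cells IGF1R had 148, 158 and 171 CPM with E2 and 116, 141 and 149 CPM with vehicle. E2 was higher in 6 of 6 pairs there as well, by a ratio of 1.09 to 1.33. The log2 fold change in unsorted cells was 0.20 ± 0.081 without the block (edgeR adjusted p = 1) and 0.21 ± 0.045 with it (edgeR adjusted p = 0.00492). The blocked log2 fold change in sorted cells was 0.24 in replicates 1 to 3 (edgeR adjusted p = 0.0364) and 0.38 in replicates 4 to 6 (edgeR adjusted p = 0.00396). In unsorted cells it was 0.17 in replicates 1 to 3, which was not called (edgeR adjusted p = 0.605), and 0.25 in replicates 4 to 6 (edgeR adjusted p = 0.0336).

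IGFBP3 had 17.7, 27.6 and 43.9 CPM in sorted E2 libraries, against 14.2, 19.7 and 37.4 CPM in sorted vehicle libraries, and the groups overlapped widely. Replicate 1 was the highest library of both groups, and E2 was higher in 6 of 6 pairs, by a ratio of 1.15 to 1.67. The log2 fold change was 0.43 ± 0.26 (SE) without the block (edgeR adjusted p = 1) and 0.49 ± 0.078 with it (edgeR adjusted p = 0.000134). The depth sets differed in size. The ratio was 1.15 to 1.18 in replicates 1 to 3, with a blocked log2 fold change of 0.23 that was not called (edgeR adjusted p = 0.368), and 1.43 to 1.67 in replicates 4 to 6, with one of 0.63 (edgeR adjusted p = 0.000317). In unsorted cells IGFBP3 was higher with E2 in 6 of 6 pairs, by a ratio of 1.03 to 1.22, and its blocked log2 fold change of 0.16 ± 0.048 missed the threshold (edgeR adjusted p = 0.0733).

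IGFBP5 ranged over 55.1 to 118 CPM in sorted E2 libraries and over 38.9 to 101 CPM in sorted vehicle libraries, with means of 93.6 ± 23.1 CPM with E2 and 76.1 ± 23.1 CPM with vehicle (SD, n = 6 each). The groups overlapped, and E2 was higher in 6 of 6 pairs, by a ratio of 1.08 to 1.42. The log2 fold change was 0.30 ± 0.22 (SE) without the block (edgeR adjusted p = 1) and 0.31 ± 0.049 with it (edgeR adjusted p = 0.000132). The blocked value was 0.32 for the shallow libraries, numbers 1 to 3, and 0.29 for numbers 4 to 6. In unsorted cells it was higher with E2 in 4 of 6 pairs, and the blocked log2 fold change was 0.013 ± 0.064 (edgeR adjusted p = 0.966).

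**Figure D4:**
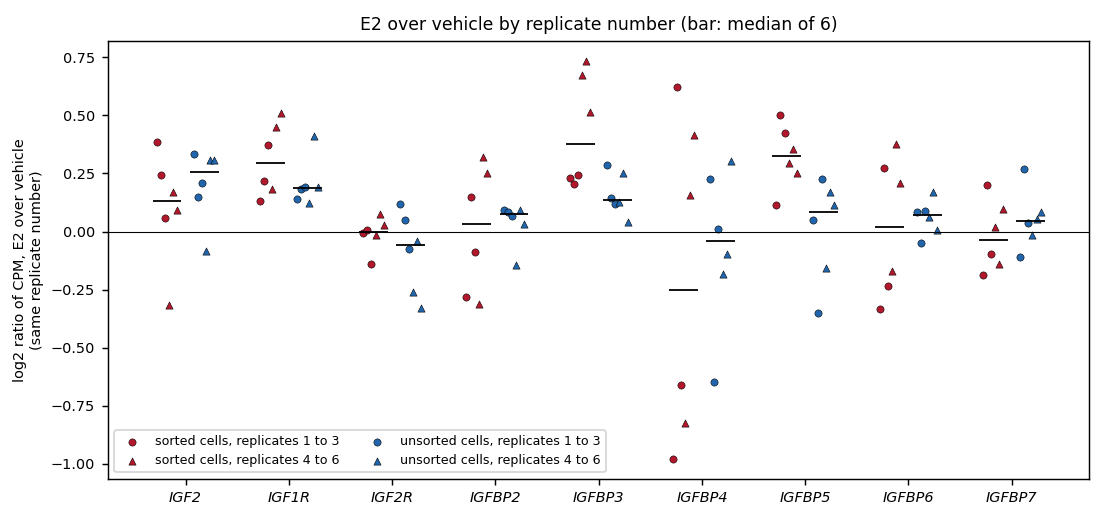
Log2 ratio of CPM, E2 over vehicle, within each replicate number for 9 genes in sorted (red) and unsorted (blue) cells, with circles for replicates 1 to 3, triangles for replicates 4 to 6 and bars at the median of 6. IGF1R and IGFBP3 lie above 0 in 6 of 6 pairs of both preparations, and IGFBP5 in 6 of 6 pairs of sorted and 4 of 6 of unsorted cells; IGF1 is left out because 1 sorted vehicle library had no read.

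The other 6 members tested in sorted cells were not called by either fit. IGF2 was higher with E2 in 5 of 6 pairs in sorted cells, with a blocked log2 fold change of 0.071 and a 95% interval of -0.12 to 0.26. In unsorted cells it was also higher in 5 of 6 pairs, at 0.19 with an interval of 0.018 to 0.37 and an edgeR adjusted p of 0.257. IGF2R had 3 pairs in each direction in sorted cells, where its blocked interval was narrow, at -0.087 to 0.086. IGFBP2, IGFBP4, IGFBP6 and IGFBP7 were likewise higher with E2 in 3 of 6 pairs of sorted cells. Their blocked intervals were -0.21 to 0.24, -0.50 to 0.27, -0.14 to 0.24 and -0.15 to 0.11, in that order, so IGFBP4 was the least precisely measured of the 4. The median log2 fold change over the 9 members with the block was 0.049 in sorted cells, against -0.002 over all genes, and over 10 members in unsorted cells it was 0.042 against -0.011.

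Cell type markers gave the following values under E2 in sorted cells. The blocked fit called 0 of 11 fibroblast and pericyte, 0 of 9 endothelial and 0 of 3 immune markers, and 2 of 8 folliculostellate and stem cell markers, both lower. It also called both thyrotrope markers lower and, of 3 somatotrope markers, 1 higher and 1 lower. The summed fibroblast and pericyte level was 764 to 1773 CPM with E2 and 698 to 1466 CPM with vehicle in sorted cells. Of 6 tested gonadotrope markers the blocked fit called 1 higher and 1 lower. GNRHR, the receptor for gonadotropin-releasing hormone, had a lowest, median and highest level of 6.68, 19.6 and 40.2 CPM in sorted E2 libraries, against 3.59, 5.07 and 9.93 CPM in sorted vehicle libraries. FSHB went the other way, at 48.6, 79.4 and 125 CPM with E2 and 74.1, 153 and 215 CPM with vehicle. The medians of CGA were 2734 CPM with E2 and 2801 CPM with vehicle. The part of other cell types in the E2 values of IGF1R, IGFBP3 and IGFBP5 was not tested.

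Whether the effect of E2 differed between the preparations was tested as the difference of the effects, sorted minus unsorted. No member was called without a block, where 0.0264% of all genes were called (4 of 15134, and 236 at an unadjusted p under 0.05, with 0 members among them), or with the replicate number as a common block, where 0.463% were called. DESeq2 called 0 members. With a separate block in each preparation, a fit added after the data were seen, 2.36% of all genes and 1 member, IGFBP3, were called. The E2 effect on IGFBP3 was larger in sorted than in unsorted cells by 0.34 ± 0.089 on the log2 scale (SE, 95% interval 0.16 to 0.52, edgeR adjusted p = 0.0369). That call held in 1 of 6 fits that left out a replicate number, the one without number 1, where the adjusted p was 0.0232, and without another number it reached 0.211. Within the depth sets, with a common block, the difference for IGFBP3 was 0.050 in replicates 1 to 3 (edgeR adjusted p = 0.999) and 0.47 in replicates 4 to 6 (edgeR adjusted p = 0.502). For IGFBP5 the difference was 0.30 with an interval of 0.12 to 0.47 (edgeR adjusted p = 0.0752), and for IGF1R it was 0.11 with an interval of -0.035 to 0.25 (edgeR adjusted p = 0.579).

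Other genes of the pathway were read from 5 lists. Of 16 tested proteases that act on binding proteins, and their inhibitors, 9 were lower and 2 higher in sorted cells with vehicle, where 50.2% of all genes were called and 25.8% were lower. Their median log2 fold change was -0.94 against 0.016 over all genes. Among them were ADAM12, a metalloprotease that in humans cleaves IGFBP3 and IGFBP5, at -3.09 ± 0.28 (SE, edgeR adjusted p = 1.13e-06), and the gelatinase MMP2 at -2.21 ± 0.23 (edgeR adjusted p = 3.27e-06). The serine protease PRSS23 was lower at -2.46 ± 0.13 (edgeR adjusted p = 1.89e-08), and the plasminogen activator PLAU at -2.35 ± 0.22 (edgeR adjusted p = 1.31e-06). Among other ligand, carrier and RNA-binding genes, 4 were tested. Of these IGF2BP2, which binds IGF2 mRNA, was lower at -1.89 ± 0.16 (edgeR adjusted p = 6.49e-07), and INSR, the insulin receptor, was higher at 0.44 ± 0.11 (edgeR adjusted p = 0.00493).

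Downstream genes, from substrates to MTOR, were called in both directions, in numbers near the 50.2% of all genes called in the comparison. Of 21 tested receptor substrates and adaptors 4 were higher and 6 lower with vehicle. The 4 called genes with the smallest p were all lower. They were the adaptors SHC1 (-1.39), CRK (-0.94) and GRB10 (-0.87) and the cytokine signalling suppressor SOCS2 (-1.72). Of 31 tested genes of the PI3K, AKT, FOXO and MTOR list 7 were higher and 8 lower. PIK3R1, a regulatory subunit of phosphoinositide 3-kinase, was higher at 0.91 ± 0.11 (SE, edgeR adjusted p = 1.04e-05), while the translation repressors EIF4EBP1 (-1.21) and EIF4EBP2 (-1.46) and the pseudokinase TRIB1 (-1.10) were lower. Of 10 tested genes of the growth hormone axis 5 were higher and 0 lower, where 3529 of all 14468 genes tested were higher. Among the 5 were the somatostatin receptors SSTR3 (2.22), SSTR1 (1.10) and SSTR5 (0.86) and the growth hormone receptor GHR (0.52). SSTR3 and SSTR1 averaged 0.739 and 0.782 CPM in unsorted libraries, near the filter cutoff of 0.787 CPM, and 3.74 and 1.83 CPM in sorted libraries. They may have entered the test through sorted libraries, so their values are a description only.

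Under E2 without the block none of these lists held a called gene in either preparation. With the block, in sorted cells, 7 of 30 tested genes of the PI3K, AKT, FOXO and MTOR list were higher and 3 lower, where 13.2% of all genes were called and 7.03% were higher. PIK3CB, a catalytic subunit, was higher at 0.62 ± 0.065 (SE, edgeR adjusted p = 7.43e-07), and the forkhead factors FOXO6 (0.94) and FOXO1 (0.57) and the pseudokinase TRIB2 (0.61) were also higher. Of 21 receptor substrates and adaptors 1 was higher, the insulin receptor substrate IRS1 at 0.41 ± 0.069 (edgeR adjusted p = 0.000289). The 4 lower ones included IRS4 (-0.32) and the Ras exchange factors SOS1 (-0.30) and SOS2 (-0.26). Of 16 tested proteases and inhibitors 1 was lower, STC1, an inhibitor of PAPP-A, at -0.46 ± 0.079 (edgeR adjusted p = 0.00029). In the growth hormone axis 4 of 11 were higher and 1 lower, with SSTR2 at 1.59 ± 0.24 (edgeR adjusted p = 7.43e-05) and SSTR5 at 1.10 ± 0.13 (edgeR adjusted p = 2.46e-06). In unsorted cells, where the block called 5.24% of all genes and 2.86% higher, it called 3 of 11 genes of that axis higher, SSTR2 at 1.24, SSTR5 at 0.89 and the receptor GHRHR at 0.27. It also called PIK3R1 (0.17) and IRS1 (0.19) higher and the adaptor GAB1 (-0.21) lower there.

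Likeness of pattern was measured as the Pearson correlation of log2 CPM with each of 11650 other named genes over the 24 libraries after the group means were taken out. Libraries of equal number share part of this variation, and depth differs between them, so the values are descriptive. IGFBP2 was most like GPC1, a heparan sulfate proteoglycan (r = 0.957), COL1A2, a collagen gene (r = 0.933), and TRAF3 (r = 0.926). The nearest genes were STXBP6 for IGFBP3 (r = 0.872), SLITRK2 for IGFBP5 (r = 0.845), TIMM44 for IGF1R (r = 0.832) and NEIL2 for IGF2R (r = 0.873). For IGFBP7 it was TIMP3, a metalloprotease inhibitor (r = 0.854), for IGFBP6 it was RUNX1 (r = 0.801) with IGFBP2 among the 3 nearest (r = 0.780), and for IGFBP4 it was ENTPD2 (r = 0.825). IGF2 was nearest to EGLN3 (r = 0.797), and IGF1, with few reads in sorted cells, to DDX27 (r = 0.732).

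In the authors' deposited tables, made from the same libraries, none of the 10 genes had a false discovery rate under 0.05 for E2, and the lowest was 0.718 in sorted cells. In the authors' deposited table for the sort with vehicle 6 of the 10 had one under 0.05, and these were the 6 genes named above. The log2 fold changes deposited for the sort have the opposite sign to those given here, with IGFBP2 at 2.60 there and -2.59 here.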

How the data were processed

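RNA was sequenced from 24 libraries made from 500 ng of total RNA each. The deposited counts are whole reads per gene, and the submitters' processing notes name featureCounts 1.5.1. An aligner, a genome build and a strand setting are not named there, so reads of overlapping genes may be mixed and positions are left out. The authors' deposited tables hold log2 fold changes, log2 mean CPM, p-values and a signed fold score from edgeR, per the file headers. Counts of the 12 vehicle libraries are deposited in 2 tables, with 0 differing values. Each comparison was fitted over all genes with edgeR 4.0.16 in R 4.3.3, with TMM scaling, the filterByExpr filter, a robust quasi-likelihood F-test (2-sided) and Benjamini-Hochberg adjustment at 0.05. SE is the log2 fold change divided by the square root of F, and CPM use TMM-scaled library sizes. Alternatives were DESeq2 1.42.0 and its size factors, no filter, the replicate block, each depth set, and leaving out each library or number.

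The labels do not say what equal replicate numbers share. In counts centred by group, libraries of equal number correlated at r = 0.290 to 0.859 in the 4 comparisons, and in each comparison 6 of 6 correlated best with their own number, so the numbers were taken to pair the libraries. Other genes named are up to 4 of each list with the smallest p among those called, with a selection printed, and the 3 nearest in pattern. The genes, lists and tests were chosen with earlier results of these data known. The fit without a block was tested on simulated data for E2 in sorted cells and for the sort with vehicle, and the outcome is not given here. The simulated libraries varied independently, with the same dispersion for every gene. Variation shared by libraries of equal number was thus not covered. Fits with a block were not tested in this way. Reads are not independent molecules, and the limit of 3 reads for a library without a read covers counting error only. The 95% intervals come from the edgeR fits and also cover the spread between libraries.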

Additional observations from a re-analysis of the deposited data

Results flagged for a closer look

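Of 40 groups of 6 libraries examined, 4 had a highest value far from the rest, where chance flags about 1 in 20. IGF2 in sorted replicate 6 stood at 28.8 CPM with E2 and at 27.0 CPM with vehicle, above the next highest libraries in both groups. IGFBP4 in sorted E2 replicate 6 stood at 10.9 CPM, and IGFBP3 in sorted vehicle replicate 1 at 37.4 CPM.

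The effect of E2 on IGFBP3 was larger in sorted than in unsorted cells by 0.34 on the log2 scale when each preparation had its own replicate block (edgeR adjusted p = 0.0369, higher with E2 in 6 of 6 pairs of both preparations). It was not called without a block or with a common block (edgeR adjusted p = 1 in both), and the call was lost in 5 of 6 fits that left out a replicate number. With a common block the difference was 0.050 in replicates 1 to 3 (edgeR adjusted p = 0.999) and 0.47 in replicates 4 to 6 (edgeR adjusted p = 0.502).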

How the results depend on the processing

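The number of genes called for E2 depended on the replicate block and on the tool. In sorted cells 196 genes were called, against 401 with DESeq2, 1896 with the block, 563 with the block in replicates 1 to 3 and 1277 in replicates 4 to 6, and the IGF genes called were 0, 0, 3, 2 and 3 in that order. Leaving out 1 library gave 125 to 208 genes, lowest without sorted vehicle replicate 3, and leaving out 1 number from the blocked fit gave 1361 to 1893 genes and 3 IGF genes each time. In unsorted cells 37 genes were called, against 124 with DESeq2, 790 with the block, 67 in replicates 1 to 3 and 730 in replicates 4 to 6, and the IGF genes called were 0, 0, 1, 0 and 1. Leaving out 1 library gave 11 to 48 genes, and leaving out 1 number from the blocked fit gave 451 to 822 genes and 1 IGF gene. For the difference of the effects 4 genes were called, against 17 with DESeq2, 0 without a filter, 70 with the block, 2 and 47 with the block in replicates 1 to 3 and 4 to 6, and 357 with a block in each preparation, which called 1 IGF gene. Leaving out 1 library gave 0 to 4 genes, and leaving out 1 number from the last fit gave 182 to 332 genes and 0 or 1 IGF gene. The cause was not tested.

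In the sort comparisons 4 to 6 IGF genes were called when 1 library was left out. IGFBP4 was not called with vehicle in replicates 1 to 3 (-0.50, edgeR adjusted p = 0.161) or with E2 without a filter (-1.12, edgeR adjusted p = 0.0521), and IGF2R was called lower with vehicle in replicates 4 to 6 alone (-0.26, edgeR adjusted p = 0.0176). IGFBP7 was called lower with E2 in replicates 1 to 3 (-0.43, edgeR adjusted p = 0.018) and without sorted replicate 6 or unsorted replicate 4. Of 1170 values of single IGF genes under an alternative 128 had the other sign, and 0 of these were called in either fit. IGF1 was tested in 6 of 12 fits that left out 1 library of a sort comparison, since it failed the filter on low counts in the others.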

Other observations

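IGFBP1, which lies next to IGFBP3 on chromosome 4 in the RefSeq assembly ARS-UI_Ramb_v3.0, is not among the 10 genes. It had 0 to 3 reads per library in sorted E2 and sorted vehicle cells, 0 to 4 in unsorted E2 cells and 0 to 1 in unsorted vehicle cells.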
